A study of Rattus norvegicus with 10 samples.

Results

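Potassium channel genes that hold neurons and glia near their resting potential were followed in the NTS (nucleus tractus solitarii), where the afferents of baroreceptors, chemoreceptors and viscera enter the brainstem. The 9 genes were the two-pore channel genes Kcnk1, Kcnk2, Kcnk3 and Kcnk9, the G protein-gated inward rectifier genes Kcnj3, Kcnj6 and Kcnj9, and the glial inward rectifier genes Kcnj10 and Kcnj16. Every probe set whose annotation gave one of these symbols alone was taken, which gave 18 of the 31042 probe sets on the array, for 9 of the 14217 genes that have a probe set of their own. Of these, 10 probe sets of 6 genes were bright enough to be tested. No member probe set passed the test between the hypertensive strain (SHR) and the normotensive strain (WKY): 0 of 10 passed (limma, Benjamini-Hochberg adjusted p below 0.05 over all 18846 probe sets tested), where 4.26% of all tested probe sets passed, 2.06% higher and 2.20% lower in SHR. At an unadjusted p below 0.05 there were 2 of the 10, against 21.0% of all tested probe sets.

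The tissue came from male spontaneously hypertensive rats (SHR), which are inbred and become hypertensive with age, and from male Wistar-Kyoto rats (WKY), the related strain with normal blood pressure, all aged 10 to 13 weeks and without any treatment named in the labels. RNA from 5 samples of each strain was measured on 10 arrays of the Rat 230 2.0 type. The series' design speaks of independent replicates and the samples' labels of 5 animals each, so it is not known whether 1 animal or a pool lies behind an array, and the p-values reflect only how these samples vary. The arrays are called SHR 1 to 5 and WKY 1 to 5, and their number limits the precision of every value.

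Two-pore channels carry a leak of potassium that is open at rest, and each of their subunits contributes a pair of pore domains. Several of them close or open with pH, stretch, lipids or transmitters, and TASK channels are among the proteins proposed to sense acid in the respiratory brainstem. Inward rectifiers pass potassium more easily into the cell than out of it. The GIRK group opens when an inhibitory receptor releases G protein beta-gamma subunits, while the channels formed by Kcnj10 and Kcnj16 clear potassium into astrocytes and are sensitive to intracellular pH. A bulk array cannot tell fewer cells of a type from less RNA in each cell.

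Signals are the deposited values of each array, in arbitrary units on a linear scale. A probe set was tested if at least 5 of the 10 arrays reached that array's 40th percentile, a signal of 26.3 to 35.9 depending on the array. Differences are SHR minus WKY on log2(signal + 16), with the standard error (SE) and 95% interval of the fit. Different probe sets bind with different efficiency, so their signals are not set against one another. An identifier that ends in _a_at marks a probe set designed to match several transcripts of 1 gene.

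The arrays differed in overall signal in a way that ran partly with strain. Their median signal was 44.2 to 49.8 in SHR, highest on SHR 2 and SHR 3, and 39.6 to 45.7 in WKY, lowest on WKY 4 and WKY 5. The ratio of the 3' to the 5' control probe set of Gapdh, a sign of RNA integrity, was 1.12 to 1.34 in SHR and 1.07 to 1.20 in WKY. As for the tissue, the noradrenergic markers Th and Dbh had means of 416 and 272 in SHR and 477 and 334 in WKY, and 5 of the 7 markers of catecholamine neurons and the NTS found on the array were bright enough to test. Of the marker probe sets tested, 0 of 14 passed for astrocytes (limma; 3 at an unadjusted p below 0.05), 1 of 13 (Snap25) was higher in SHR for neurons, 2 of 13 (2 of the 3 of Mobp) were lower for oligodendrocytes, 3 of 10 (C1qa, Aif1 and Ctss) were lower for microglia and 2 of 4 (Enpp2 and Sostdc1) were higher for choroid plexus. Over all tested probe sets 4.26% passed (limma), and 21.0% had an unadjusted p below 0.05. Of the 10 fits that each left out an array, the call was lost in 7 for Snap25, 6 for Enpp2 and 8 for Sostdc1. With the median signal as a covariate none of these 3 passed (limma adjusted p = 0.597, 0.216 and 0.346). Without SHR 2 and SHR 3 none of the 3 passed either (limma adjusted p = 0.225, 0.0548 and 0.178), and with quantile normalization Snap25 and Sostdc1 did not (limma adjusted p = 0.141 and 0.115). The summed signal of the astrocyte markers was 16926 to 20195 in SHR and 16210 to 18007 in WKY, and that of the neuronal markers was 15801 to 17554 and 14257 to 16186. The summed signal of the microglial markers was 2220 to 2316 in SHR and 2598 to 2870 in WKY, with every SHR array below every WKY array. Among the 9 marker lists, the microglial one alone had ranges that did not overlap between the strains. Of the related lists below, receptors that open GIRK channels summed to 4135 to 4396 in SHR and 3970 to 4126 in WKY. Genes of proton sensing and central chemoreception summed to 2501 to 2706 and 2709 to 2763, so these lists did not overlap either. The part of microglia in the channel values was not tested.

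**Figure D1:**
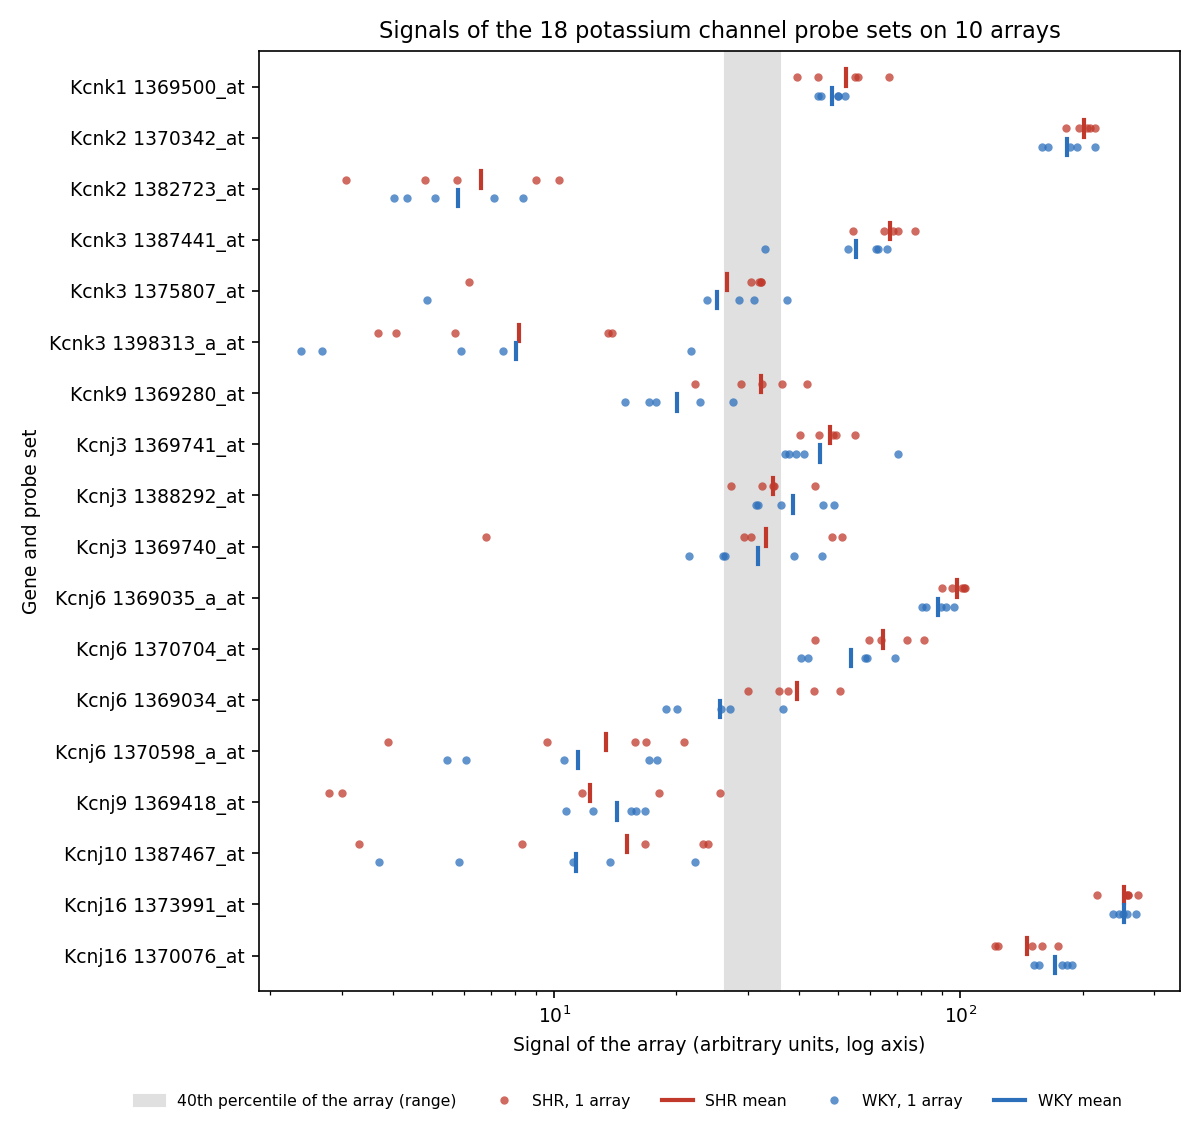
Signals of the 18 potassium channel probe sets, with one row for each probe set and a logarithmic signal axis in arbitrary units. Points are single arrays (red SHR, blue WKY), vertical bars are means of 5 arrays, and the grey band is the range of the 40th percentile over the arrays (26.3 to 35.9). In each row the points of the strains overlap, and the probe sets of Kcnj9 and Kcnj10 lie left of the band on every array.

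Among the two-pore channels, Kcnk2 was measured with the narrowest interval. Kcnk2 encodes TREK-1, a channel opened by membrane stretch, warmth and polyunsaturated fatty acids such as arachidonic acid. On probe set 1370342_at its signals were 205, 196, 209, 182 and 214 on SHR 1 to 5 and 186, 159, 164, 215 and 193 on WKY 1 to 5. The highest value belonged to WKY 4 and the lowest to WKY 2, so the SHR values lay within the range of the WKY values. The means were 201 ± 12.7 and 183 ± 22.6 (SD, n = 5), a log2 difference of 0.13 ± 0.082 (SE; limma adjusted p = 0.392). The 95% interval of the ratio of SHR to WKY ran from 0.969 to 1.23. With the median signal as a covariate the difference was 0.26 ± 0.10 (SE; limma adjusted p = 0.342). A second probe set, 1382723_at, stayed between 3.08 and 10.3 on all arrays and was too dim to test.

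Kcnk1 encodes TWIK-1, a weakly conducting channel that much of the time sits in endosomes. Its single probe set, 1369500_at, gave 44.5, 55.0, 66.7, 55.9 and 39.6 in SHR and 44.7, 52.0, 49.9, 45.3 and 49.9 in WKY. SHR 3 was the highest array and SHR 5 the lowest, and the WKY arrays lay between them: 3 SHR values were above all WKY values and 2 were below. The means of 52.3 ± 10.6 and 48.4 ± 3.20 (SD, n = 5) differed by 0.073 ± 0.12 on the log2 scale (SE; limma adjusted p = 0.769). The sign of this difference turned with quantile normalization, with the median signal as a covariate and without SHR 2 and SHR 3.

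The acid-sensitive TASK channels are encoded by Kcnk3 (TASK-1) and Kcnk9 (TASK-3), which can join in 1 channel and close when the outside of the cell becomes acid. Kcnk3 on probe set 1387441_at had 68.2, 64.9, 77.5, 54.5 and 70.2 in SHR and 52.8, 65.9, 61.8, 62.7 and 33.1 in WKY. The arrays SHR 1, SHR 3 and SHR 5 were above every WKY array, SHR 2 and SHR 4 lay within the WKY range, and WKY 5 stood well below the other arrays. The means were 67.0 ± 8.40 and 55.3 ± 13.3 (SD, n = 5), with a log2 difference of 0.24 ± 0.14 (SE; limma adjusted p = 0.331) and a 95% interval of the ratio from 0.967 to 1.44. Without WKY 5 the difference was 0.11, and with the median signal as a covariate it was 0.055 (limma adjusted p = 0.957). The other probe sets of Kcnk3, 1375807_at (4.87 to 37.4) and 1398313_a_at (2.38 to 21.7), were too dim to test.

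Kcnk9 was also below the filter, but its arrays were the most nearly separated of all members. Probe set 1369280_at had 22.2, 32.4, 28.9, 42.0 and 36.4 in SHR and 17.2, 27.6, 22.9, 15.0 and 17.8 in WKY. On 1369280_at, 4 of the 5 SHR arrays lay above every WKY array, and SHR 1 lay among the WKY values. Only SHR 4 and SHR 5 reached the 40th percentile of their array. The means were 32.4 ± 7.46 and 20.1 ± 5.09 (SD, n = 5). In a fit of all 31042 probe sets without the filter, the log2 difference was 0.42 ± 0.15 (SE) and did not pass (limma adjusted p = 0.158, unadjusted p = 0.0134). It was 0.29 when quantile normalization was added (limma adjusted p = 0.344) and 0.35 with the median signal as a covariate (limma adjusted p = 0.634). With 1 array left out in turn it ran from 0.35 to 0.50 (limma adjusted p from 0.109 to 0.323). The combinations of no filter with another setting or a left-out array were chosen after seeing the data. Dim probe sets as a whole leaned the same way: of the 12196 left out by the filter, 71.8% had a difference above 0, with a median of 0.094. The part of overall signal level in the value of Kcnk9 was not tested further.

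Subunits of the GIRK channels carry the slow inhibitory current that GABA-B, opioid, adenosine and alpha-2 adrenergic receptors evoke. Kcnj3 encodes GIRK1, which needs a partner to reach the cell surface. Its brightest probe set, 1369741_at, had 40.4, 44.8, 54.9, 49.5 and 48.6 in SHR and 70.2, 39.5, 41.2, 37.9 and 37.0 in WKY. WKY 1 was the highest of all 10 arrays, and 4 of the 5 SHR arrays were above the remaining WKY arrays. The means were 47.6 ± 5.44 and 45.2 ± 14.1 (SD, n = 5), a log2 difference of 0.079 ± 0.14 (SE; limma adjusted p = 0.788). Without WKY 1 the difference was 0.21 (limma adjusted p = 0.342), and its sign turned with quantile normalization and with the median signal as a covariate. WKY 1 was also the array with the highest signal of the choroid plexus marker Ttr, 182 against 26.9 to 80.2 on the other arrays. Ttr was picked with its values known, and the marker list as a whole did not peak on WKY 1. The summed signal of its 4 tested probe sets was 858 to 1017 in SHR and 648 to 917 in WKY. The part of choroid plexus tissue in the Kcnj3 value was not tested.

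The second tested probe set of Kcnj3, 1388292_at, differed in the opposite direction. It had 32.6, 34.7, 43.8, 34.6 and 27.2 in SHR and 46.0, 48.8, 36.2, 31.8 and 31.3 in WKY. Of its SHR values, 4 lay inside the WKY range and that of SHR 5 lay below it. The log2 difference was -0.11 ± 0.14 (SE; limma adjusted p = 0.677). It was -0.24 with quantile normalization (limma adjusted p = 0.290), -0.37 with the median signal as a covariate (limma adjusted p = 0.413) and between -0.17 (without SHR 3) and -0.049 (without WKY 2) with 1 array left out. This probe set reached the 40th percentile on 2 SHR and all 5 WKY arrays, so it entered the test mainly through the strain in which it was higher. Another probe set, 1369740_at, was too dim to test and spread from 6.80 on SHR 3 to 51.2 on SHR 2. Averaged over the 2 tested probe sets, Kcnj3 differed by -0.016 ± 0.13 (SE; limma adjusted p = 0.959).

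Kcnj6, which encodes GIRK2, the subunit that can form channels alone and brings GIRK1 to the membrane, had 3 tested probe sets, all with a higher mean in SHR and none past the threshold. The brightest, 1369035_a_at, had 95.1, 102, 90.2, 101 and 103 in SHR and 82.1, 89.5, 80.4, 96.6 and 92.3 in WKY. The arrays SHR 2, SHR 4 and SHR 5 were above every WKY array, while SHR 1 and SHR 3 fell within the WKY range. The means were 98.2 ± 5.38 and 88.2 ± 6.86 (SD, n = 5), a log2 difference of 0.13 ± 0.082 (SE; limma adjusted p = 0.373), with a 95% interval of the ratio from 0.973 to 1.24. With the median signal as a covariate the difference was 0.24 (limma adjusted p = 0.407). Probe set 1370704_at had 63.7, 74.0, 59.4, 81.2 and 43.8 in SHR and 68.9, 58.3, 42.2, 40.5 and 58.8 in WKY. SHR 4 and SHR 2 were the highest and WKY 4 the lowest, with the rest mixed. The log2 difference on it was 0.20 ± 0.14 (SE; limma adjusted p = 0.442), and 0.069 with that covariate (limma adjusted p = 0.949).

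The dimmest tested probe set of Kcnj6, 1369034_at, had the smallest adjusted p of the 10 tested member probe sets. Its signals were 37.7, 35.8, 43.6, 50.6 and 30.0 in SHR and 27.1, 36.6, 25.7, 18.9 and 20.1 in WKY. SHR 1, SHR 3 and SHR 4 were above every WKY array, and WKY 2 lay between SHR 2 and SHR 1. The means were 39.6 ± 7.86 and 25.7 ± 7.05 (SD, n = 5), and the log2 difference was 0.42 ± 0.15 (SE), a ratio of 1.34 with a 95% interval from 1.08 to 1.66 (limma unadjusted p = 0.0117, adjusted p = 0.119). Of the 5 arrays on which it reached the 40th percentile, 4 were SHR and 1 was WKY, so it entered the test mainly through the strain in which it was higher. The difference was 0.20 with the median signal as a covariate (limma adjusted p = 0.771), 0.29 with quantile normalization (limma adjusted p = 0.255) and 0.51 without WKY 2, where its adjusted p was the lowest of any setting tried on a tested member (limma adjusted p = 0.0755). Another probe set of Kcnj6, 1370598_a_at, lay between 3.90 and 20.8 and was not tested. The mean of the 3 tested probe sets differed by 0.25 ± 0.10 (SE; limma adjusted p = 0.170, unadjusted p = 0.0236), a setting chosen after seeing the data. That mean includes 1369034_at and so shares its limit of having entered mainly through the SHR arrays.

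Kcnj9, which encodes GIRK3, had a single probe set, 1369418_at, that reached the 40th percentile on none of the 10 arrays. It had 11.7, 18.1, 25.5, 2.79 and 3.00 in SHR and 15.9, 10.7, 16.7, 15.5 and 12.5 in WKY. The SHR values reached from far below to far above the WKY values, with SD 9.83 in SHR and 2.55 in WKY (n = 5). Its level was too low for a statement on strain.

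**Figure D2:**
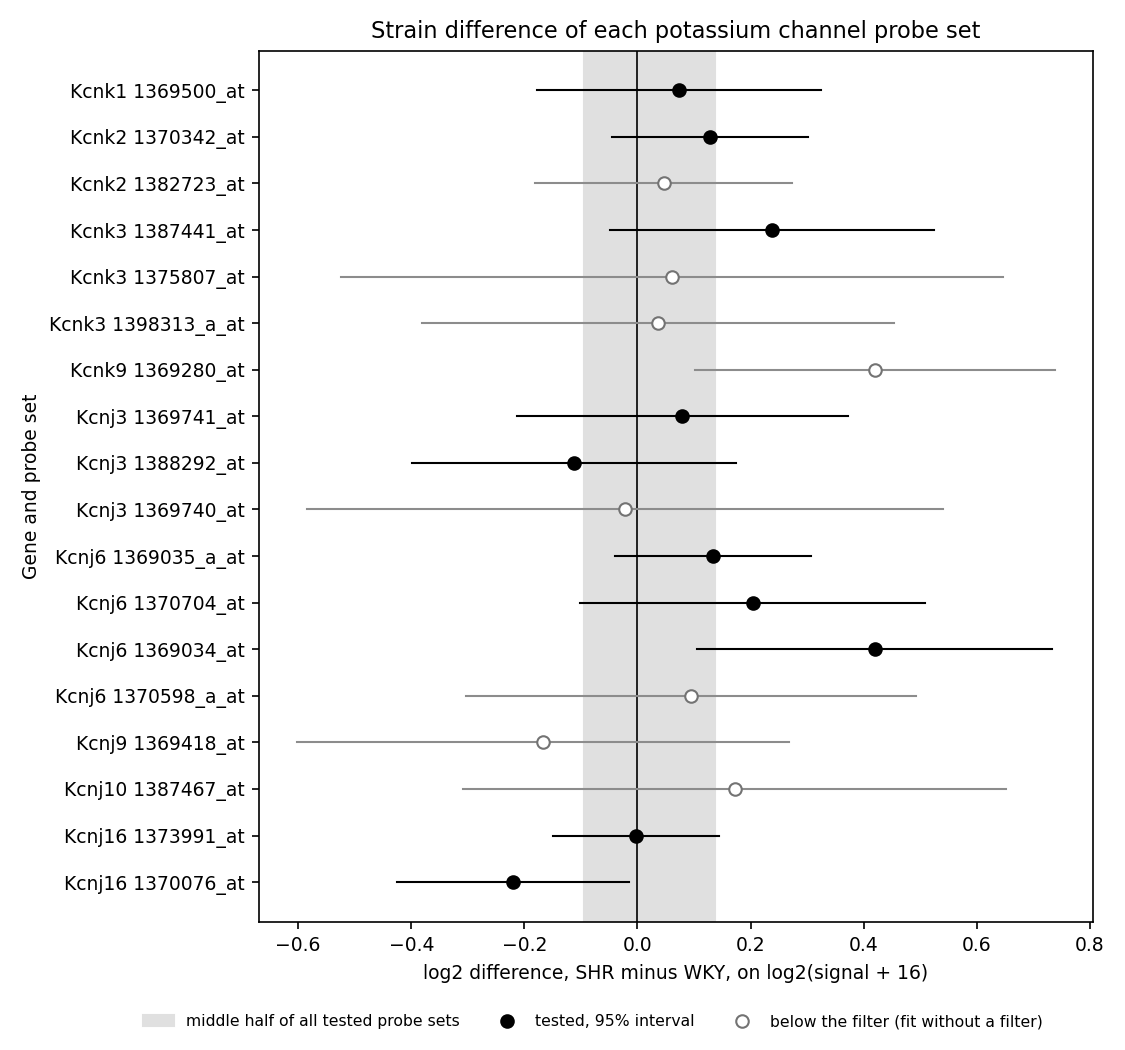
Log2 difference, SHR minus WKY on log2(signal + 16), of each of the 18 probe sets, with the 95% interval of the fit as a line. Filled points are the 10 tested probe sets, open points the 8 below the filter (from the fit without a filter), and the grey band runs from the first to the third quartile of all tested probe sets, -0.094 to 0.14. The intervals of Kcnj6 1369034_at, Kcnk9 1369280_at and Kcnj16 1370076_at lie on one side of 0 before adjustment for the number of probe sets, and none passed after it.

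Kcnj16 encodes Kir5.1, which is silent alone and joins the Kcnj10 product, Kir4.1, in pH-sensitive channels of astrocytes. Its brighter probe set, 1373991_at, had 255, 217, 274, 258 and 258 in SHR and 246, 251, 238, 271 and 257 in WKY. SHR 2 was the lowest array and SHR 3 the highest, with all WKY arrays between them. The means were 253 ± 20.9 and 253 ± 12.4 (SD, n = 5), with a log2 difference of -0.0024 ± 0.069 (SE; limma adjusted p = 0.989). The 95% interval of the ratio, 0.902 to 1.10, was the narrowest among the tested members. The sign of so small a difference changed in 6 of 22 other settings, quantile normalization among them.

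The dimmer probe set of Kcnj16, 1370076_at, gave another value. Its signals were 122, 149.9, 124, 174 and 159 in SHR and 156, 151, 188, 183 and 178 in WKY. SHR 1, SHR 2 and SHR 3 were below every WKY array, while SHR 4 and SHR 5 were within the WKY range. The means were 146 ± 22.7 and 171 ± 16.7 (SD, n = 5), a log2 difference of -0.22 ± 0.097 (SE) with a 95% interval of the ratio from 0.744 to 0.990 (limma unadjusted p = 0.0370, adjusted p = 0.204). With the median signal as a covariate it was -0.11 (limma adjusted p = 0.829). The mean of both probe sets differed by -0.11 ± 0.067 (SE; limma adjusted p = 0.371). Which transcripts of Kcnj16 each probe set reads was not stated in the labels.

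Kcnj10 could not be followed. Kir4.1 is the main potassium channel of astrocytes, yet its single probe set, 1387467_at, had 8.35, 23.3, 23.8, 3.30 and 16.7 in SHR and 13.7, 22.2, 3.71, 11.1 and 5.81 in WKY, below the 40th percentile on all 10 arrays. The strains overlapped over nearly the whole range, with SD 9.09 and 7.28 (n = 5). Some astrocyte marker probe sets were bright on the same arrays. They are given as a description of the tissue, since signals of different probe sets are not comparable with that of Kcnj10. Gfap, the intermediate filament of astrocytes, had 2155 ± 276 in SHR and 2275 ± 80.1 in WKY. The brightest probe set of the water channel Aqp4 had 2511 ± 289 and 2317 ± 186 (SD, n = 5). Others were far dimmer: the remaining Aqp4 probe sets had means of 52.7 and 107 in SHR and 46.5 and 111 in WKY. The tested probe set of Slc1a2 had 44.7 in SHR and 43.5 in WKY. Whether Kcnj10 RNA is scarce in this tissue or the probe set binds it poorly was not tested. In assembly GRCr8, Kcnj9 and Kcnj10 are neighbours on chromosome 13. The single probe set of each was below the filter, as were 12196 of all 31042, and a link of position to signal was not tested.

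Across the members, 7 of the 10 tested probe sets had a difference above 0, as had 54.0% of all tested probe sets. Their median was 0.10 against 0.016 for all tested probe sets, and their median absolute difference was 0.13 against 0.12. These values count probe sets, so a gene with several, such as Kcnj6 with all of its tested ones above 0, weighs more. With 1 mean for each gene, Kcnj3 (-0.016) and Kcnj16 (-0.11) were below 0, and Kcnk1, Kcnk2, Kcnk3 and Kcnj6 were above it. The Kcnj3 mean includes 1388292_at and the Kcnj6 mean 1369034_at, which entered the test mainly through the strain in which each was higher. Of the tested member probe sets, 0 had SHR and WKY values that did not overlap, where 6.13% of all tested probe sets did. Of the 8 untested ones, 6 had a difference above 0 in the fit without a filter, where 71.8% of all probe sets left out by the filter did. None of the 8 passed there, and 1 (Kcnk9) had an unadjusted p below 0.05, where 15.2% of all those left out did. In that fit 2.18% of all probe sets passed. The 3 tested genes with several probe sets did not give 1 value each: the differences ran from -0.11 to 0.079 in Kcnj3, from 0.13 to 0.42 in Kcnj6 and from -0.22 to -0.0024 in Kcnj16, and the difference between probe sets of a gene was not tested.

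**Figure D3:**
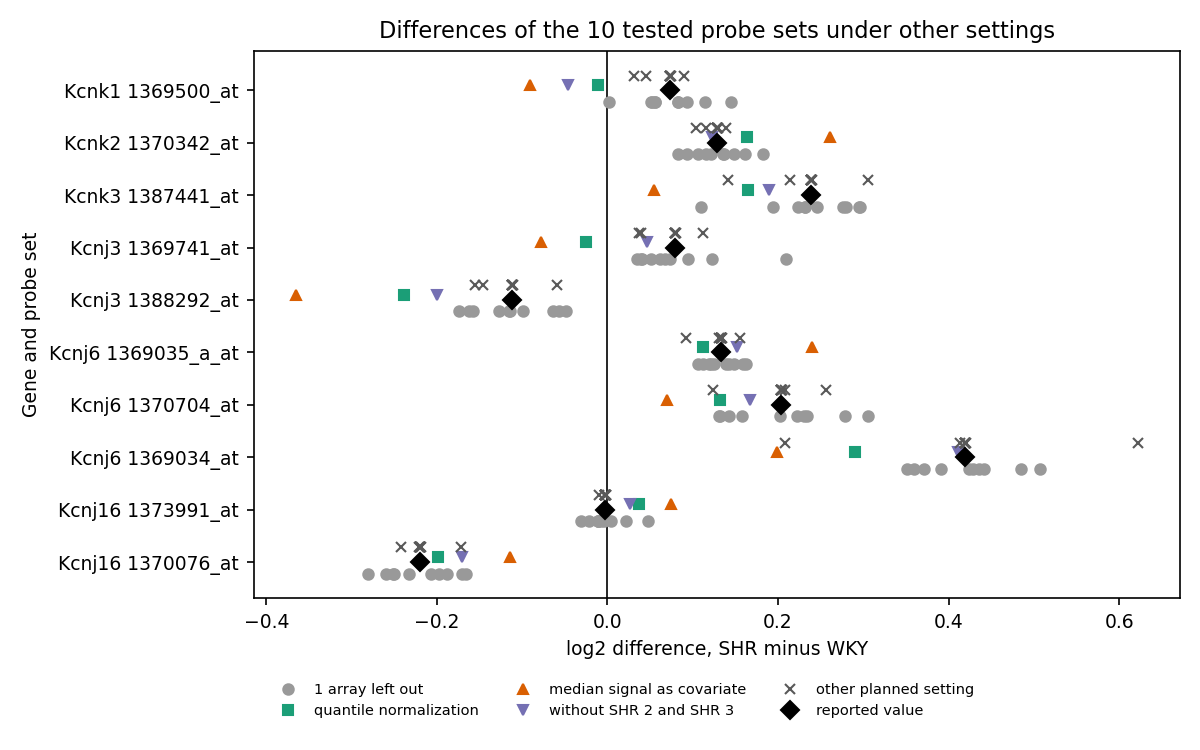
Log2 difference, SHR minus WKY, of the 10 tested probe sets as reported (black diamonds) and under other settings: 1 array left out (grey circles), quantile normalization (green squares), the median signal as a covariate (orange triangles), without SHR 2 and SHR 3 (purple triangles) and other settings (crosses). The values of Kcnk1, Kcnj3 1369741_at and Kcnj16 1373991_at lie on both sides of 0, and the other 7 stay on one side.

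By the similarity of pattern over the 10 arrays, the genes nearest to Kcnj16 1373991_at were Cnst, Plppr3 and Pdcl, with Pearson r of 0.91, 0.90 and 0.89 among 13953 other named probe sets. Those nearest to Kcnj6 1369034_at were Bcl6b, Atp7b and Zc3h18, with r of 0.97, 0.95 and 0.93 among 13952. These are the highest values of a long search over arrays that share their overall signal level, and are given as a description without a test. Zc3h18 passed the test of strain (log2 difference 0.45; limma adjusted p = 0.0454), while the other 5 did not. No such search was made for Kcnj10, whose probe set was below the filter.

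The rest of both channel families was examined for the same comparison. Of the other two-pore genes, 3 of 10 had a tested probe set. Of those 3 probe sets 0 passed (limma), and 1 had an unadjusted p below 0.05, against 21.0% of all tested probe sets. Kcnk13, which encodes the THIK-1 channel, had the smallest adjusted p of them, with 65.0 ± 13.9 in SHR and 46.9 ± 8.70 in WKY (SD, n = 5), differing by 0.36 ± 0.13 on the log2 scale (SE; limma adjusted p = 0.131, unadjusted p = 0.0145). Of the other inward rectifiers and the subunits of ATP-sensitive channels, 1 of 8 tested probe sets passed, against the 4.26% of all probe sets. An unadjusted p below 0.05 (limma) was met by 3 of the 8, against 21.0%. The probe set that passed was of Kcnj4, which encodes the strong inward rectifier Kir2.3 of forebrain and other neurons.

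Kcnj4 had 66.1, 95.9, 106, 89.8 and 71.5 on SHR 1 to 5 and 52.5, 62.5, 53.8, 51.8 and 46.6 on WKY 1 to 5. Every SHR array was above every WKY array, and the highest were SHR 3 and SHR 2, which also had the highest median signals. The means were 85.9 ± 16.8 and 53.4 ± 5.74 (SD, n = 5), a log2 difference of 0.54 ± 0.12 (SE; limma adjusted p = 0.0130), or 1.46-fold. The call held in all 10 fits with 1 array left out (highest limma adjusted p = 0.0427) and with quantile normalization (limma adjusted p = 0.0193), and it ended without SHR 2 and SHR 3 (limma adjusted p = 0.0940) and with the median signal as a covariate (limma adjusted p = 0.418). The ATP-sensitive pore gene Kcnj11 had probe sets at -0.29, 0.11 and 0.28, and none passed. On the last, 1369782_a_at, the strains did not overlap, with 43.5 to 54.7 in SHR and 33.4 to 42.9 in WKY (limma adjusted p = 0.162). Such a lack of overlap was met by 6.13% of all tested probe sets.

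Among G protein subunits and regulators of GIRK channels, 7 of 27 tested probe sets had an unadjusted p below 0.05 (limma), against 21.0% of all tested probe sets. The threshold was passed by 2 of the 27, against 4.26% of all tested probe sets. Both were of Snx27 and both were higher in SHR. Snx27 encodes a sorting nexin whose PDZ domain binds GIRK subunits and steers them through endosomes. Probe set 1379804_at had 189, 147, 145, 156 and 202 in SHR and 93.3, 56.7, 79.2, 67.0 and 70.8 in WKY, so that all SHR arrays were above all WKY arrays. The means were 168 ± 26.1 and 73.4 ± 13.7 (SD, n = 5), a log2 difference of 1.04 ± 0.12 (SE; limma adjusted p = 2.74e-05), and probe set 1377526_at differed by 0.96 ± 0.12 (limma adjusted p = 9.91e-05). Both calls held with the median signal as a covariate (limma adjusted p = 0.00134 and 0.00775) and in all 10 fits with 1 array left out. The brightest probe set of Snx27, 1372203_at, went the other way with 478 ± 38.8 in SHR and 572 ± 58.7 in WKY (difference of -0.25 ± 0.075 SE; limma adjusted p = 0.0708), and 1381394_at differed by 0.026. The 4 probe sets of Snx27 thus do not give 1 direction for the gene, and the cause was not tested.

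The counts of the next lists stand beside all tested probe sets, of which 4.26% passed (limma) and 21.0% had an unadjusted p below 0.05. Of the receptors that open GIRK channels, 0 of 15 tested probe sets passed (limma; 3 at an unadjusted p below 0.05). The alpha-2 adrenergic receptor gene Adra2a had the smallest adjusted p on probe set 1387708_at, with 50.5 ± 9.98 in SHR and 35.7 ± 8.29 in WKY (SD, n = 5), differing by 0.37 ± 0.14 on the log2 scale (SE; limma adjusted p = 0.147). Its other tested probe set, 1393048_at, had means of 196 and 197 and differed by -0.0074 (limma adjusted p = 0.970). Of the partners of two-pore channels, 0 of 13 passed (3 at an unadjusted p below 0.05), led by the syntaxin gene Stx8, which binds TASK-1, at 0.22 ± 0.071 (SE; limma adjusted p = 0.0895). Among genes of astrocyte potassium and water handling, 2 of 22 passed (3 at an unadjusted p below 0.05). Glul, the glutamine synthetase of astrocytes, was lower on its brightest probe set (log2 difference -0.35 ± 0.070 SE; limma adjusted p = 0.00776) and differed by 0.12 and 0.0100 on the others. Dtna, a dystrobrevin of the dystrophin complex at astrocyte endfeet, was higher on 1380964_at (338 ± 12.4 in SHR and 287 ± 19.4 in WKY; 0.23 ± 0.062; limma adjusted p = 0.0463), a call that was lost in 9 of the 10 fits that each left out an array. The call of Glul held in all 10 of these fits (highest limma adjusted p = 0.0283). It also held with quantile normalization (limma adjusted p = 0.000165) and, narrowly, without SHR 2 and SHR 3 (limma adjusted p = 0.0471). With the median signal as a covariate neither Glul nor Dtna passed (limma adjusted p = 0.223 and 0.248).

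Of the genes of proton sensing and central chemoreception, 0 of 15 tested probe sets passed (limma), against 4.26% of all tested probe sets. An unadjusted p below 0.05 was met by 5, against 21.0%, and 4 had a difference above 0, against 54.0%. The carbonic anhydrase-related gene Car8 had the smallest adjusted p, at -0.26 ± 0.11 (SE; limma adjusted p = 0.167). The medians of the 7 related lists lay between -0.041 for proton sensing and 0.15 for the other two-pore channels, beside 0.016 for all tested probe sets.

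**Figure D4:**
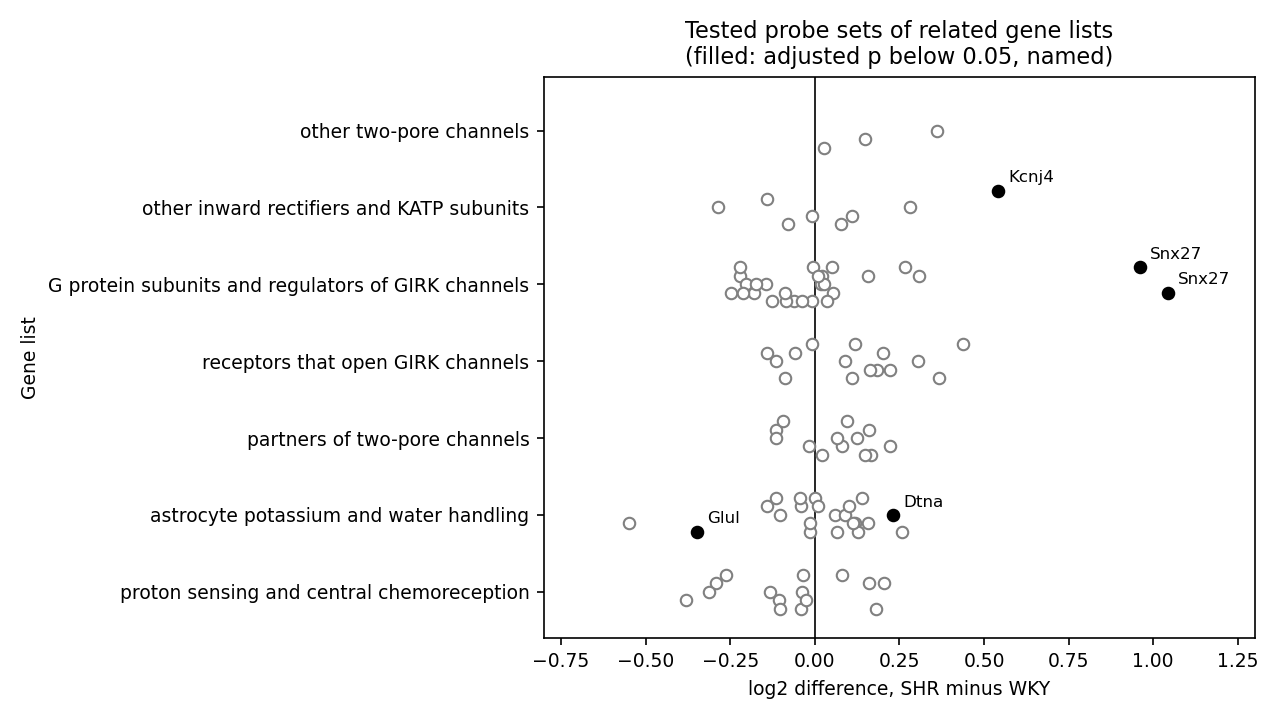
Log2 difference, SHR minus WKY, of every tested probe set in the 7 related gene lists, 1 point for each probe set; vertical offsets within a row only separate the points. Filled and named points passed the threshold (limma adjusted p below 0.05): Kcnj4, 2 probe sets of Snx27, Glul and Dtna.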

How the data were processed

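Per the labels, RNA of 10 NTS samples was amplified with a MessageAmp II kit for 1-colour Rat 230 2.0 arrays. Linear intensities, 1 per probe set and array, were deposited by the authors, and the submitters' processing notes name GCOS 1.2. From the values, the authors scaled every array to the same trimmed mean (2% trimmed at each end). No label or header used here states the background step, detection calls or batches, so no signal is called present or absent.

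Samples were grouped by the strain in their titles, and the unnumbered first sample of each strain is called 1. After 57 control probe sets were left out, log2(intensity + 16) was fitted with strain as the single term in limma 3.58.1 (R 4.3.3; lmFit, eBayes with trend) on 18846 probe sets. Folds are on this scale, which understates changes of low signals. Adjusted p below 0.05 over all tested probe sets was the threshold. Symbols follow the RefSeq table of GRCr8, matched by Entrez identifier.

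The members and the 7 context and 9 marker lists were chosen with earlier results of these data known. Named are all member probe sets, list members past the threshold or else the one of smallest adjusted p, and, for Kcnj16 and the tested member of smallest adjusted p, the 3 nearest patterns; the rule also held Kcnj10, which was below the filter. Kcnj11, Ttr, Gfap, Aqp4, Slc1a2, the marker genes past the threshold and the remaining probe sets of Snx27, Glul and Adra2a were chosen for naming with their values known. The scripts were tested on simulated data, where 22% of 1.25-fold, 78% of 1.5-fold and 94% of 2-fold changes were recovered. The share of false calls there was 6.37%. Small changes can thus be missed, and a probe set that did not pass is not shown to be equal between the strains. Alternatives covered scaling, offset, filter, moderation, array weights, a block for the replicate number, the median signal as a covariate and left-out arrays. Fits of the dim probe sets without the filter under other settings, and means over the probe sets of a gene, were added after seeing the data.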

Additional observations from a re-analysis of the deposited data

Results flagged for a closer look

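In 36 groups of 5 arrays (18 probe sets in 2 strains), 3 single arrays stood apart from the other 4 of their strain by Dixon's criterion, which chance meets in about 1 of 20 groups. The Kcnk3 probe set 1375807_at had 6.16 on SHR 3, with the next SHR value at 30.5. The Kcnk3 probe set 1398313_a_at had 21.7 on WKY 3, with the next WKY value at 7.48. Both of these probe sets were below the filter. The Kcnj3 probe set 1369741_at had 70.2 on WKY 1, with the next WKY value at 41.2, and its log2 difference was 0.079 with that array and 0.21 without it.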

How the results depend on the processing

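Under all settings tried the number of member probe sets past the threshold stayed at 0, with the lowest limma adjusted p of a tested member at 0.0755 and 1 to 3 at an unadjusted p below 0.05. With the filter at the 60th percentile 5 member probe sets were left to test. Of the 10 tested probe sets, 7 kept their sign and 3 did not. Kcnk1 turned to -0.012 with quantile normalization, -0.090 with the median signal as a covariate and -0.046 without SHR 2 and SHR 3. Kcnj3 1369741_at turned to -0.025, -0.078 with the first pair of these settings, and to -0.016 as the mean of its probe sets. Kcnj16 1373991_at turned to 0.037, 0.074 and 0.026 under the same 3 settings and ran from -0.031 to 0.047 with 1 array left out. The count over all probe sets, 803, was 1214 with the replicate block, 207 with the covariate, 512 without SHR 2 and SHR 3, and 480 (without WKY 4) to 976 (without SHR 5) with 1 array left out; without WKY 5 it was 481. No label says that the replicate numbers pair the arrays, and the correlations do not settle it: same-numbered arrays correlated at 0.038 to 0.28 in their deviations from the strain mean, 3 of the 5 pairs above 0.1, and 3 of 5 SHR arrays correlated best with their own number. With the block 0 member probe sets passed. The covariate took the counts of other inward rectifiers (1) and of astrocyte handling genes (2) to 0. It overlaps with strain, since median signals tended to be higher in SHR, and which of these an ended call reflects was not tested. The probe sets of Kcnj9, Kcnj10 and Kcnk9 are limited by low signal: the difference of Kcnk9 was 0.66 with an offset of 1 and 0.20 with 64.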
